A study of Mus musculus with 2 samples.

Results

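The cells described here are the neutrophils of pressure-overloaded mouse hearts that carried little RNA of Icam1, the gene of an adhesion molecule that binds leukocyte integrins. They were chosen from measured RNA levels as CPM, the counts of a gene scaled to a total of 1000000 in the cell. A cell counted as a member with mitochondrial genes at 25% of counts or less, S100a8 and S100a9 summing to 3000 CPM or more, Csf3r at 20 CPM or more, Csf1r under 50, Ly6c2 under 200 and Icam1 under 300 CPM. In all, 126 of 878 cells met the rule, which was 14.7% of the 857 cells within the mitochondrial limit (exact 95% binomial interval 12.4 to 17.3, for counting error only). The pool held 21 cells over that limit, of which 2 met every other criterion. The 33 Icam1-high neutrophils met the same rule with Icam1 at 300 CPM or more. The other 698 kept cells failed the rule on a gene other than Icam1. Among them, 91 passed on S100a8, S100a9 and Csf3r and were shut out by Csf1r (73 cells), Ly6c2 (27 cells) or both (9 cells). The 607 remaining cells are used beside the 698, since the 91 carried many neutrophil genes too.

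All cells came from hearts of Cdh5-CreERT2;REFLEX mice that had received tamoxifen and had undergone transverse aortic constriction (TAC), a narrowing of the aorta that overloads the left ventricle. In this line the tamoxifen-activated Cre recombinase is driven by the promoter of Cdh5, the VE-cadherin gene of endothelial cells, and the REFLEX system marks interacting cells with GFP. CD45-positive and CD45-negative cells, each with and without GFP, were sorted, and the 4 fractions were pooled, and 20000 cells entered the workflow that gave 1 transcriptome library with a matching hashtag library. Hearts without TAC, the age of the mice, the number of mice and the time after surgery are not given in the sources used here. All groups below therefore share the genotype, tamoxifen and TAC. They were told apart by RNA, but can also differ in sorted fraction, which could not be checked because no label ties a tag to a fraction. Cells named with tag A951 made up 47.6% of Icam1-low neutrophils and 32.6% of the remaining cells. Cells named A965 made up 11.1% of Icam1-low neutrophils and 36.4% of the remaining cells. Among members named A965, that tag was the highest in only 2 of 14, so these shares describe names and do not show a difference in fraction. With 1 library there are no replicates: no test was made, no p-value is given, and every level is a description of these cells. The median count per cell was 63688 in Icam1-low neutrophils, 59283 in Icam1-high neutrophils and 87838 in the remaining cells. With each cell thinned to 25000 counts, the median number of genes was 1667 in Icam1-low neutrophils, 1659 in Icam1-high neutrophils and 2344 in the remaining cells. The median mitochondrial share was 1.94% in Icam1-low neutrophils, 1.65% in Icam1-high neutrophils and 2.76% in the remaining cells.

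Neutrophils store their microbicidal proteins in granules that are filled in order as the cell matures in the bone marrow. Azurophil granules are made first, with proteases and myeloperoxidase. Specific granules follow, with lactoferrin, cathelicidin and lipocalin, and then gelatinase granules, with matrix metalloproteinases. The granule RNAs are largely shut off stage by stage, so that a circulating neutrophil holds the proteins of early granules without their RNA. Once released, neutrophils carry receptors for chemoattractants and can make cytokines such as interleukin 1 beta within tissue.

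The cells bore the RNA of mature neutrophils, and the RNA of late-stage gelatinase granules, but hardly any RNA of cathelicidin, elastase or myeloperoxidase. Against the remaining cells, a description of them as rich in granule RNA therefore held for Retnlg, Lcn2, Mmp8, Mmp9 and Hp. It did not hold for Camp, Elane, Mpo, Chil3 or Cybb, and Ltf was found in only 13 of 126 members. Against Icam1-high neutrophils it did not hold for Mmp9 (696 CPM in Icam1-low, 863 CPM in Icam1-high), and Hp was close (1980 and 1734 CPM). Ngp, which is often used to mark neutrophils with specific granules in formation, came almost wholly from 3 of the 126 cells. The cells are called Icam1-low neutrophils here. Of the neutrophil markers, Camp was under 20 CPM in them, and all 126 cells held at least 3 of the 6 markers S100a8, S100a9, Csf3r, Retnlg, Ngp and Camp at 50 CPM or more, of which the first 3 belong to the rule. So did all 33 Icam1-high neutrophils, 89 of the 91 cells over the Csf1r or Ly6c2 limit and 116 of the 607 remaining cells. The members nearest the Icam1 limit had 222.6, 233.5 and 238.3 CPM, and the nearest cells above it had 331.1, 388.0 and 398.1 CPM. The lowest S100a8 and S100a9 sum was 4250 CPM among members, against a highest value of 1827 CPM among cells that failed on this criterion alone. The values were closer together at the Csf1r limit, with 48.45 CPM in the highest member and 53.12 CPM in the lowest cell shut out by Csf1r alone.

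The 300 bases around the starts of 3 granule genes are printed because the check of the cells' granule RNA turned on them: Retnlg was abundant, Ngp had most of its counts in 3 cells and Camp was near 0. They come from RefSeq on build GRCm38.p6, 250 bases before and 50 after the start, 5′ to 3′ on the gene's strand. Retnlg lies at chr16:48872358-48872657 on the plus strand, Ngp at chr9:110419558-110419857 on the plus strand and Camp at chr9:109849407-109849706 on the minus strand. Capitals mark matches, on either strand, to TTGCNNAA, a core bound by C/EBP factors, and to GAGGAA, a core bound by PU.1.
Retnlg: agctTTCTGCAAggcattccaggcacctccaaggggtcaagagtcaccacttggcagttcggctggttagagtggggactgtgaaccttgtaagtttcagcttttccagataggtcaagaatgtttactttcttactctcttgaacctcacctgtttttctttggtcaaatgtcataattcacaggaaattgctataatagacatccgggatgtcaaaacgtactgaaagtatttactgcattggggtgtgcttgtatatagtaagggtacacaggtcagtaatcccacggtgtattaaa
Ngp: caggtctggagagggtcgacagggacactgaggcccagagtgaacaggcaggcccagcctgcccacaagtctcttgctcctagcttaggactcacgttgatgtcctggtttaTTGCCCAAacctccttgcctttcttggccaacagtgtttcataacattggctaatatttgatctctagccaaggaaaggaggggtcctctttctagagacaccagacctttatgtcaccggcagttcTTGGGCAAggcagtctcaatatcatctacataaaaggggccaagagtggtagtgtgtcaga
Camp: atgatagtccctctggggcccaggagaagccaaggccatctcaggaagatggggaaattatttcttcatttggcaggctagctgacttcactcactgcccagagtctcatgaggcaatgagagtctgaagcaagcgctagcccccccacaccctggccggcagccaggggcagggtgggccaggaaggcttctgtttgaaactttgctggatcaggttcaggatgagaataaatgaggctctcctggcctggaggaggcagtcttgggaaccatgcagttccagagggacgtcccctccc
The Retnlg window held 1 match to TTGCNNAA, the Ngp window held 2 and the Camp window held 0, while GAGGAA was found in none of the 3. The window of Cxcr2, a receptor gene abundant in the members, was also searched and held 0 matches to TTGCNNAA and 2 to GAGGAA. The motif TTGCNNAA was in 10.8% of 32851 RefSeq promoters of this length and GAGGAA in 28.3%. A match describes letters in a window and does not show a bound site.

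Retnlg, which encodes a resistin-like secreted protein of mature mouse neutrophils, had the highest log2 ratio to the 698 others (computed after adding 20 CPM to each) among the genes named by that ratio. It ran among Icam1-low neutrophils between 0 and 119220 CPM with a median of 6091, and among Icam1-high neutrophils between 0 and 20009 CPM with a median of 129. Ranges overlapped, but 91 of 126 Icam1-low neutrophils reached 1000 CPM, against 15 of 33 Icam1-high neutrophils. Summed over cells, Retnlg stood at 12804 CPM in Icam1-low neutrophils (95% Poisson interval 12727 to 12880, counting error only), 2314 CPM in Icam1-high neutrophils (2250 to 2380) and 27.9 CPM in the remaining cells. The 91 cells over the Csf1r or Ly6c2 limit were close to the members, with 10073 CPM of Retnlg and 53 of 91 cells at 1000 CPM or more. The ratio of Icam1-low over Icam1-high neutrophils was 5.53 (5.38 to 5.69). A single cell held 46.1% of the Retnlg counts of the Icam1-high neutrophils, and 10.0% came from 1 cell of the Icam1-low neutrophils; without both cells the log2 ratio was 3.12, against 2.46 with them.

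Lcn2, the gene of lipocalin 2, an iron-scavenging protein of specific granules, was also higher in Icam1-low than in Icam1-high neutrophils over all cells, though less so among cells named A952. Its levels ran between 0 and 6330 CPM with a median of 398 in Icam1-low neutrophils, and between 0 and 6085 CPM with a median of 10.8 in Icam1-high neutrophils. The summed level was 1152 CPM in Icam1-low neutrophils, 522 CPM in Icam1-high neutrophils and 66.5 CPM in the remaining cells. In both neutrophil groups some cells were at 0, and 40 of 126 Icam1-low neutrophils reached 1000 CPM, against 3 of 33 Icam1-high neutrophils. The highest Icam1-high cell held 42.5% of that group's Lcn2 counts. Lcn2 was not particular to the members: the 91 cells over the Csf1r or Ly6c2 limit had 2149 CPM, and 31 of them reached 1000 CPM.

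Ngp, which encodes neutrophilic granule protein, was at 0 in most members. Its summed level was 93.9 CPM in Icam1-low neutrophils (87.5 to 101), against 2.37 CPM in Icam1-high neutrophils and 2.27 CPM in the remaining cells. The 3 highest Icam1-low neutrophils had 5938, 2184 and 682 CPM and together held 93.8% of the group's Ngp counts. Retnlg stood at 119220, 75776 and 25516 CPM in the same 3 cells, all of them above the median of their group. Camp, the gene of the cathelicidin precursor, summed to 2.72 CPM in Icam1-low neutrophils (1.73 to 4.09), against 14.2 CPM in Icam1-high neutrophils (9.60 to 20.3), with no cell of either group at 1000 CPM. Ltf, the lactoferrin gene, stood at 49.0 CPM in Icam1-low neutrophils and 37.5 CPM in Icam1-high neutrophils, with 2 Icam1-low cells at 1000 CPM or more.

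**Figure D1:**
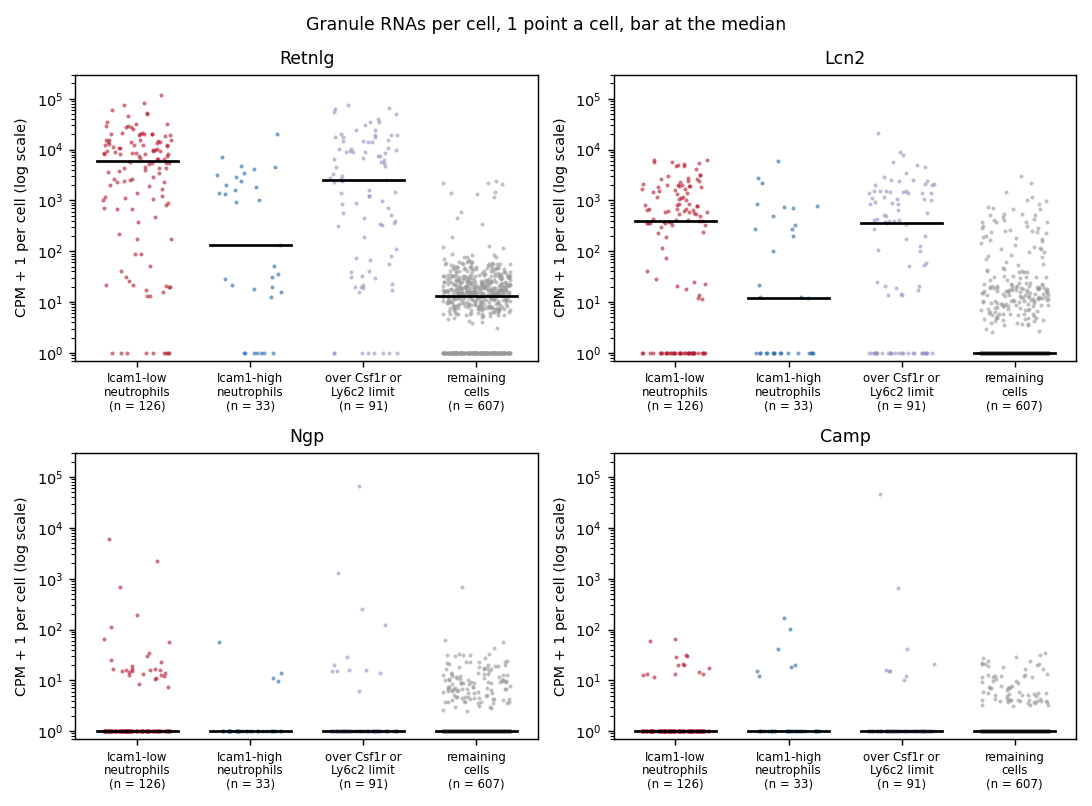
Per-cell levels of Retnlg, Lcn2, Ngp and Camp as CPM + 1 on a log scale, 1 point a cell, in Icam1-low neutrophils (n = 126), Icam1-high neutrophils (n = 33), cells over the Csf1r or Ly6c2 limit (n = 91) and the remaining cells (n = 607), with a bar at the median. Retnlg and Lcn2 are spread over many Icam1-low neutrophils, while Ngp and Camp sit at 0 in most, and 1 cell over the Csf1r or Ly6c2 limit stands at 66305 CPM of Ngp and 46073 CPM of Camp.

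Nearly all Camp and Ngp RNA of the pool lay outside the group, in 1 cell. That cell had 66305 CPM of Ngp, 46073 CPM of Camp, 10276 CPM of Ltf and 20938 CPM of Lcn2, and was shut out by Ly6c2 at 607 CPM. Of the counts of the 91 cells over the Csf1r or Ly6c2 limit it held 99.0% for Ngp, 99.8% for Camp and 97.9% for Ltf. With it, the log2 ratio of Icam1-low neutrophils over the 698 other cells was -1.44 for Ngp and -3.27 for Camp. Without the leading cell of the gene in each group these ratios were 1.02 for Ngp and 0.05 for Camp. In the 103 B cells, which should lack these genes and had a median depth of 68720 counts, Ngp was found in 12.6% of cells, against 23.8% of Icam1-low neutrophils at a median depth of 63690 counts. After thinning each cell to 25000 counts, 15.1% of Icam1-low neutrophils had Ngp (9.33 to 22.5), against 1.94% of B cells (0.236 to 6.84). For Camp the thinned shares were 3.18% of Icam1-low neutrophils (0.872 to 7.93) and 0.971% of B cells (0.0246 to 5.29), so that Camp in these cells cannot be told apart from free RNA at this depth.

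By granule class, the gelatinase list had the highest share of genes above the other cells, but the class lists share genes. A gene is called higher or lower below when its CPM differed at least 2-fold with 20 CPM added to both sides, among genes with at least 50 counts. Against the 698 cells failing the rule, 544 of 18150 genes (3.0%) were higher and 1283 (7.07%) were lower, with a median log2 ratio of -0.07. Of 16 gelatinase granule genes, 9 were higher and 2 lower (median log2 ratio 1.57). Hp, Pglyrp1 and Mmp8 were higher and are counted in both the gelatinase and the specific granule list. The gelatinase list also holds Slc2a3, a glucose transporter gene. The list summed to 21621 CPM in Icam1-low neutrophils and 13594 CPM in the 698 cells, with 59.2% of the members' counts in Retnlg. Retnlg made 12804 CPM of the sum in members and 857 CPM in the 698 cells, so the rest of the list summed to less in members. That rest holds Lyz2, a lysozyme gene shared by myeloid cells, at 1768 CPM in members and 10383 CPM in the 698 cells. The lower rest therefore does not describe the other gelatinase granule genes. Mmp9, the gelatinase that names the granule, stood at 696 CPM in Icam1-low neutrophils, 863 CPM in Icam1-high neutrophils and 18.4 CPM in the remaining cells. Mmp8, the neutrophil collagenase, stood at 411 CPM in Icam1-low neutrophils, 160 CPM in Icam1-high neutrophils and 64.9 CPM in the remaining cells. It was found in 49 of 126 Icam1-low and 8 of 33 Icam1-high neutrophils, and 1 cell held 21.3% of its counts in the first group and 45.9% in the second. The metalloproteinase gene Adam8 was at 416 CPM in Icam1-low neutrophils and 122 CPM in Icam1-high neutrophils. Padi4, whose enzyme citrullinates histones in neutrophil extracellular traps, was at 102 CPM in Icam1-low neutrophils and 41.7 CPM in Icam1-high neutrophils, where 1 cell held 73.9% of it.

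Specific granule genes were divided. Of 23 tested, 7 were higher and 5 lower than in the 698 cells (median log2 ratio 0.09). The list summed to 9367 CPM in Icam1-low neutrophils, 9468 CPM in Icam1-high neutrophils and 6371 CPM in the remaining cells. Hp, the haptoglobin gene, stood at 1980 CPM in Icam1-low neutrophils, 1734 CPM in Icam1-high neutrophils and 550 CPM in the remaining cells. Lrg1, a secreted glycoprotein gene, was at 1372 CPM in Icam1-low neutrophils, 740 CPM in Icam1-high neutrophils and 188 CPM in the remaining cells. Pglyrp1, which encodes a peptidoglycan-binding protein, had 1154 CPM in Icam1-low neutrophils, 1294 CPM in Icam1-high neutrophils and 120 CPM in the remaining cells. Chil3, a chitinase-like protein gene of immature neutrophils and of some macrophages and monocytes, was lower, with 871 CPM in Icam1-low neutrophils against 2228 CPM in Icam1-high neutrophils and 3411 CPM in the remaining cells. Cybb, which encodes the catalytic subunit of the phagocyte oxidase, stood at 18.4 CPM in Icam1-low neutrophils and 25.6 CPM in Icam1-high neutrophils, against 512 CPM in the remaining cells. Of 9 oxidase genes, 4 were higher and 2 lower than in the 698 cells.

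RNA of the azurophil granule enzymes made only in precursors was near 0, while lysosomal genes of the same list were not. Elane, the neutrophil elastase gene, had no count in Icam1-low neutrophils, and Mpo, the myeloperoxidase gene, stood at 0.474 CPM. Prtn3, the proteinase 3 gene, was at 7.40 CPM in Icam1-low neutrophils and 1.42 CPM in Icam1-high neutrophils. Ctsb, a cathepsin gene, stood at 421 CPM in Icam1-low neutrophils and 582 CPM in Icam1-high neutrophils, and Cd63, a granule membrane tetraspanin gene, at 230 CPM in Icam1-low neutrophils and 672 CPM in Icam1-high neutrophils. Of 15 azurophil genes, 1 was higher and 3 were lower than in the 698 cells, and 79.4% of the list's counts in members were Srgn, the proteoglycan core gene that many leukocytes use. Early precursor genes had 1 of 13 higher and 3 lower, with 92.3% of counts in Hmgb2, a chromatin protein gene. Dividing-cell genes had 1 of 15 higher, again Hmgb2, and 3 lower. Top2a, a topoisomerase gene of dividing cells, stood at 0.454 CPM and Mki67, the proliferation marker gene, at 1.24 CPM in Icam1-low neutrophils, while Mki67 was at 28.0 CPM in Icam1-high neutrophils, 79.7% of it in 1 cell. Cebpe, a transcription factor gene needed for specific granules, was at 17.3 CPM in Icam1-low neutrophils and 17.6 CPM in Icam1-high neutrophils.

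**Figure D2:**
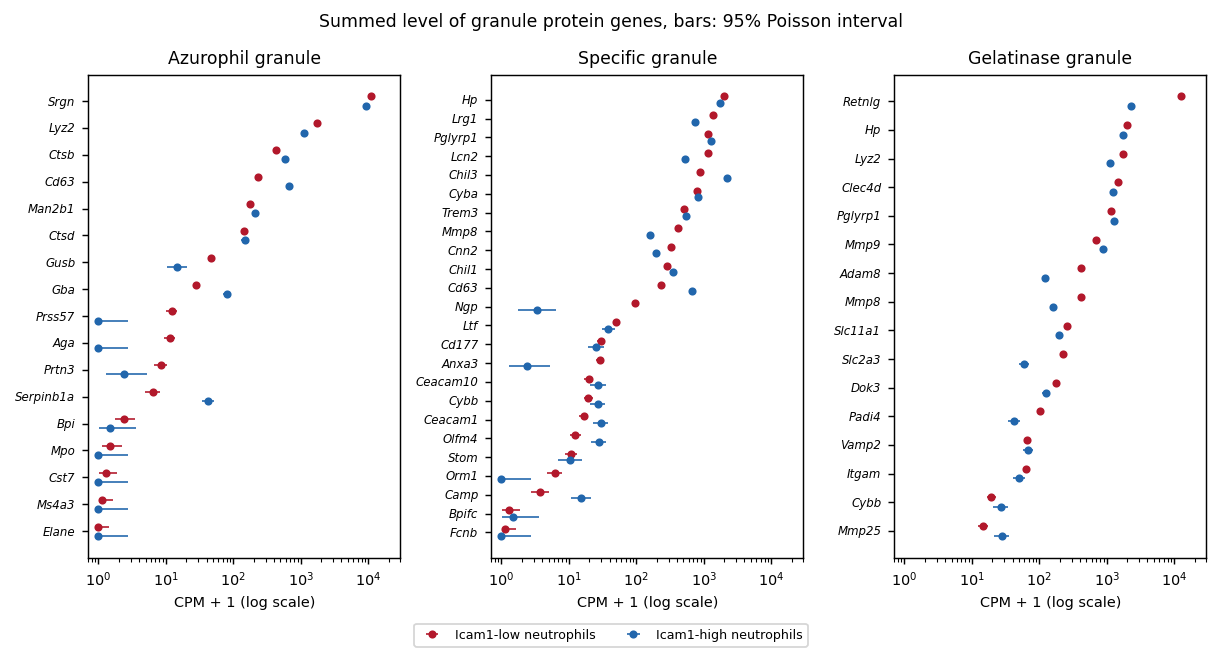
Summed CPM + 1 on a log scale of each azurophil, specific and gelatinase granule gene in Icam1-low neutrophils (n = 126 cells) and Icam1-high neutrophils (n = 33 cells), with 95% Poisson intervals of the counts. Elane, Mpo and Camp lie near the left edge in Icam1-low neutrophils, and Retnlg stands at 12804 CPM in Icam1-low and 2314 CPM in Icam1-high neutrophils.

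Genes of released, mature neutrophils set the members apart from the other cells. Of 31 genes of the mature stage list, 28 were higher and 0 lower than in the 698 cells (median log2 ratio 1.95), and 29 were higher than in the 607 remaining cells, where 613 of 17821 genes (3.44%) were higher and 1422 (7.98%) lower in all. Cxcr2, the receptor for neutrophil-attracting CXC chemokines, ran between 0 and 4204 CPM with a median of 721 in Icam1-low neutrophils, and between 0 and 2538 CPM with a median of 487 in Icam1-high neutrophils. Summed, it stood at 869 CPM in Icam1-low neutrophils, 602 CPM in Icam1-high neutrophils and 11.4 CPM in the remaining cells. Il1r2, the decoy receptor for interleukin 1, was found in all 126 members, between 277 and 17490 CPM, and summed to 4138 CPM, against 4856 CPM in Icam1-high neutrophils and 297 CPM in the remaining cells. Hdc, which makes histamine from histidine, was at 1737 CPM in Icam1-low neutrophils, 1493 CPM in Icam1-high neutrophils and 47.9 CPM in the remaining cells. Mxd1, a MYC antagonist of cells that have stopped dividing, was at 1872 CPM in Icam1-low neutrophils, 1540 CPM in Icam1-high neutrophils and 178 CPM in the remaining cells. Since the members were chosen by other neutrophil genes, these ratios describe the choice and are no test of it.

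Other genes among the 20 with the highest ratio to the 698 cells were Stfa2l1 and Cstdc4 (stefin-type protease inhibitors), Asprv1 (an aspartic protease), Osgin1, Grina, Wfdc21, Acod1 (itaconate synthesis), Cxcl3, G0s2 (a lipase inhibitor), Ifitm1, Slpi (a secreted inhibitor of elastase), Plk3, Nudt4 and Dhrs9. Their log2 ratios, with those of the genes above, ran between 2.66 for Mxd1 and 3.87 for Retnlg. Slpi stood at 4937 CPM in Icam1-low neutrophils, 2599 CPM in Icam1-high neutrophils and 290 CPM in the remaining cells. Ifitm1, an interferon-induced membrane protein gene, was at 5797 CPM in Icam1-low neutrophils, 6101 CPM in Icam1-high neutrophils and 285 CPM in the remaining cells. Cxcl3 was uneven, with 29.4% of the members' counts in 1 cell. Stfa1, Stfa2l1, Cstdc4 and Cstdc5 are near-identical copies, so the split of reads among them is uncertain.

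Many, but not all, receptor genes for chemoattractants and microbial products were higher in the members. Of 17 chemoattractant receptor genes, 10 were higher and 3 lower than in the 698 cells (median log2 ratio 1.26). Ccr1, a receptor for CC chemokines, stood at 849 CPM in Icam1-low neutrophils, 873 CPM in Icam1-high neutrophils and 105 CPM in the remaining cells. C5ar1, the receptor for complement C5a, was at 756 CPM in Icam1-low neutrophils and 842 CPM in Icam1-high neutrophils. Cxcr4, the receptor that holds neutrophils in the bone marrow, was at 513 CPM in Icam1-low neutrophils, 505 CPM in Icam1-high neutrophils and 182 CPM in the remaining cells. Of 24 pattern recognition genes 11 were higher and 0 lower, led by Cd14, a lipopolysaccharide co-receptor gene, at 2155 CPM in Icam1-low neutrophils and 3664 CPM in Icam1-high neutrophils. Of 18 adhesion and migration genes 4 were higher and 2 lower. Ly6g, the classical surface marker gene of mouse neutrophils, was found in 14 of 126 Icam1-low neutrophils and 1 of 33 Icam1-high neutrophils. Siglecf, a lectin gene of eosinophils and of some tissue neutrophils, was found in 30 of 126 Icam1-low neutrophils and 15 of 33 Icam1-high neutrophils.

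Cytokine RNA was present in the Icam1-low neutrophils themselves. Of 26 cytokine and NF-κB genes, 15 were higher and 1 lower than in the 698 cells (median log2 ratio 1.27), and the list summed to 35714 CPM in Icam1-low neutrophils and 9222 CPM in the 698 cells. Il1b, the interleukin 1 beta gene, was found in all 126 members, with a median of 9129 CPM and a highest value of 35407 CPM, and summed to 9616 CPM in Icam1-low neutrophils, 15860 CPM in Icam1-high neutrophils and 1636 CPM in the remaining cells. Cxcl2, a chemokine that attracts neutrophils, reached 1000 CPM in 115 of 126 Icam1-low neutrophils and all 33 Icam1-high neutrophils. Its sum was 13255 CPM in Icam1-low neutrophils, 25030 CPM in Icam1-high neutrophils and 1105 CPM in the remaining cells.

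MHC class II genes were lower in the members, as were some heat shock and respiration genes. Of 9 MHC class II genes, 7 were lower and 0 higher than in the 698 cells (median log2 ratio -3.38). Cd74, the invariant chain gene, stood at 462 CPM in Icam1-low neutrophils and 891 CPM in Icam1-high neutrophils, against 9146 CPM in the remaining cells. The leading member of each gene held 40.5% of the group's Cd74 counts and 50.1% of its H2-Aa counts. The other genes among the 10 with the lowest ratio were Ccl5, H2-Ab1, S100a10, Crip1, H2-Eb1, Cd79a, Tmsb10 and Ms4a6c, with log2 ratios between -5.06 for Ccl5 and -4.06 for Ms4a6c. Of 14 MHC class I genes 3 were lower and 1 higher, and that list summed to 9699 CPM in Icam1-low neutrophils and 9536 CPM in the 698 cells. Of 10 heat shock genes 4 were lower and 0 higher, with Hspa8 at 248 CPM in Icam1-low neutrophils and 1087 CPM in the remaining cells. Of 22 oxidative phosphorylation genes 6 were lower and 0 higher, while of 22 glycolysis genes 5 were higher and 0 lower. Slc16a3, the lactate exporter gene, was at 929 CPM in Icam1-low neutrophils, 590 CPM in Icam1-high neutrophils and 81.4 CPM in the remaining cells. Lyz2, the lysozyme gene shared by myeloid cells, was at 1768 CPM in Icam1-low neutrophils, 1106 CPM in Icam1-high neutrophils and 10995 CPM in the remaining cells.

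Set against the Icam1-high neutrophils, the Icam1-low neutrophils had a lower summed level of cytokine and NF-κB genes and higher levels of Retnlg and Lcn2. Since the groups were divided by Icam1, an NF-κB target gene, differences in genes that vary with it cannot be told apart from the choice of cells. Of 7859 genes, 411 (5.23%) were higher and 562 (7.15%) lower, with a median log2 ratio of 0.07. Of 25 cytokine and NF-κB genes, 12 were lower and 0 higher (median log2 ratio -0.98). The list summed to 35714 CPM in Icam1-low neutrophils and 66723 CPM in Icam1-high neutrophils. Nfkbia, the gene of the inhibitor that NF-κB induces as its own brake, had a median of 646 CPM in Icam1-low neutrophils and 8181 CPM in Icam1-high neutrophils. It summed to 2556 CPM in Icam1-low neutrophils and 8331 CPM in Icam1-high neutrophils. Tnf stood at 200 CPM in Icam1-low neutrophils and 605 CPM in Icam1-high neutrophils. Il1rn, the interleukin 1 receptor antagonist gene, stood at 288 CPM in Icam1-low neutrophils and 1352 CPM in Icam1-high neutrophils.

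**Figure D3:**
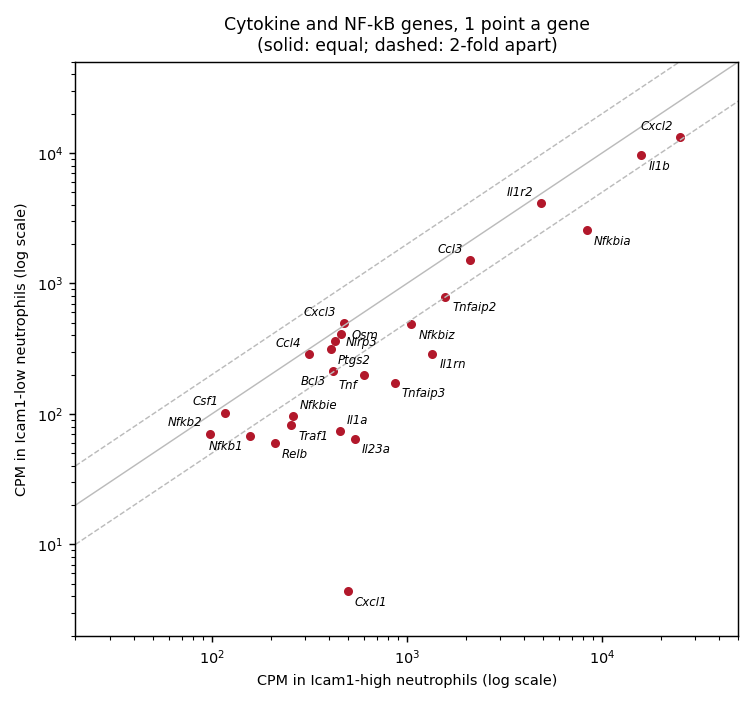
Summed CPM of the cytokine and NF-κB genes at 1 CPM or more in both groups in Icam1-low neutrophils (vertical axis, n = 126 cells) against Icam1-high neutrophils (horizontal axis, n = 33 cells), both on log scales, 1 point a gene, with a solid line of equal levels and dashed lines 2-fold apart. No gene lies above the upper dashed line, and Cxcl1, at 4.39 CPM in Icam1-low and 496 CPM in Icam1-high neutrophils, lies lowest, though its log2 ratio was 0.60 among cells named A952, A953 or A965.

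The 15 genes lowest in Icam1-low relative to Icam1-high neutrophils included survival, antioxidant and feedback genes. Bcl2a1d, of the BCL2-related A1 family, stood at 69.2 CPM in Icam1-low neutrophils and 702 CPM in Icam1-high neutrophils, with a log2 ratio of -3.02, though the A1 copies Bcl2a1a, Bcl2a1b and Bcl2a1d are near-identical and their split is uncertain. Sod2, the mitochondrial superoxide dismutase gene, was at 140 CPM in Icam1-low neutrophils and 812 CPM in Icam1-high neutrophils. Tnfaip3, an ubiquitin-editing inhibitor of NF-κB, was at 173 CPM in Icam1-low neutrophils and 863 CPM in Icam1-high neutrophils. Il23a, the p19 subunit gene of interleukin 23, was found in 8 of 126 Icam1-low neutrophils, 1 of which held 61.4% of it, and 11 of 33 Icam1-high neutrophils. Cxcl1, a neutrophil-attracting chemokine gene, was found in 5 of 126 Icam1-low neutrophils and 4 of 33 Icam1-high neutrophils; its log2 ratio was -4.40 over all cells and 0.60 among cells named A952, A953 or A965. The others were Saa3, Stfa1, Tnfrsf13b, Il1a, Rassf4, Mmd, Clec4b2, Marcksl1, Il1rn and Sdhaf1. Several rested on single cells: the leading Icam1-high cell held 93.2% of Tnfrsf13b, 80.6% of Rassf4 and 75.9% of Saa3 counts in that group. Others rested on few cells. Stfa1 was found in 4 of 33 Icam1-high neutrophils and Clec4b2 in 3 of 33, with 58.8% and 59.7% of the counts in 1 cell. Without the leading cells the log2 ratios were -0.39 for Tnfrsf13b, -0.85 for Rassf4 and -2.42 for Saa3, against -2.46, -2.32 and -3.70 with them.

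On the higher side of this comparison stood Retnlg, Ngp, Glrx (a glutaredoxin gene), Timp2 (a metalloproteinase inhibitor gene), Il15 (a lymphocyte cytokine gene), Rsad2 (an interferon-induced gene), Mirt2 (a long noncoding RNA), Ccl2, Ccdc189, Dctn3, Med31, Cstdc5, Eid1, Usp39 and Oaz2. Glrx was found in 44 of 126 Icam1-low neutrophils and 4 of 33 Icam1-high neutrophils, and summed to 166 CPM in Icam1-low neutrophils and 10.4 CPM in Icam1-high neutrophils. Timp2 was at 231 CPM in Icam1-low neutrophils and 34.6 CPM in Icam1-high neutrophils. Il15 was at 184 CPM in Icam1-low neutrophils and 24.7 CPM in Icam1-high neutrophils, where 1 cell held 92.3% of it. Usp39 came from 1 member, with 97.3% of its counts, and its log2 ratio was 0.20 without the leading cells, against 2.21 with them. For Ngp the value without the leading cells was 1.24, against 2.35. Ccl2, a monocyte chemokine gene, had 41.6% of its counts in 1 member and stood at 185 CPM in Icam1-low neutrophils and 3.32 CPM in Icam1-high neutrophils. Only 8 of 126 members reached 100 CPM of Ccl2. Its level was higher outside both groups, at 252 CPM in the cells over the Csf1r or Ly6c2 limit and 487 CPM in the remaining cells. Of 22 glycolysis genes 5 were higher and 0 lower, among them Slc2a3, a glucose transporter gene, at 225 CPM in Icam1-low neutrophils and 58.5 CPM in Icam1-high neutrophils, and Pygl, the glycogen phosphorylase gene, at 338 CPM in Icam1-low neutrophils and 106 CPM in Icam1-high neutrophils. Of 16 gelatinase granule genes 4 were higher and 0 lower, and of 21 specific granule genes 4 were higher and 2 lower, the lower share being near that of all genes. The higher gelatinase genes were Retnlg, Slc2a3, Adam8 and Mmp8, and the higher specific granule genes were Ngp, Lcn2, Mmp8 and Anxa3. Mmp8 is thus counted in both, and Slc2a3 also among the glycolysis genes. For Anxa3, 1 member held 45.4% of the counts, and its log2 ratio was 0.75 without the leading cells, against 1.16 with them.

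Survival genes were uneven. Of 20 tested, 2 were higher and 5 lower in Icam1-low than in Icam1-high neutrophils (median log2 ratio -0.60). Mcl1, a main survival gene of neutrophils, stood at 1276 CPM in Icam1-low neutrophils and 1195 CPM in Icam1-high neutrophils. Birc3, an inhibitor of apoptosis gene that NF-κB induces, was at 344 CPM in Icam1-low neutrophils and 815 CPM in Icam1-high neutrophils. Of the immediate early genes, a class that preparing cells from tissue can also induce, 2 of 20 were higher and 1 was lower. Fosb stood at 240 CPM in Icam1-low neutrophils and 68.3 CPM in Icam1-high neutrophils, and Dusp2, a MAP kinase phosphatase gene, at 286 CPM in Icam1-low neutrophils and 1220 CPM in Icam1-high neutrophils. Interferon-stimulated genes had 3 of 24 higher and 0 lower, and Isg15, a ubiquitin-like modifier gene, reached 1000 CPM in 20 of 126 Icam1-low neutrophils and 5 of 33 Icam1-high neutrophils.

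Among the 126 members, a small set of genes went with Retnlg across cells at a Spearman rho of 0.4 or more in size. The per-cell sum of Ngp, Camp, Ltf and Lcn2 had Spearman rho between -0.363 and 0.372 with the 4015 genes present in at least 20% of members, and no gene reached 0.4 in size. The highest were S100a9 at 0.37 and Mmp8 at 0.37, and most counts of this sum were Lcn2. With Retnlg, 11 genes had rho of 0.4 or more and 4 had -0.4 or less. The highest was Wfdc21, a WAP-domain protein gene, at 0.60, followed by Retnla at 0.56, S100a9 at 0.54 and Wfdc17 at 0.46. Gda, S100a8, Ccl6, S100a11, H2-D1, Taldo1 and Rdh12 made up the rest. S100a8 and S100a9 are genes of the rule that chose the members, so their rho with Retnlg and with the granule sum is no independent result. Retnla is a close relative of Retnlg at 2.02 CPM in these cells, so reads shared between the copies cannot be told apart from its own RNA. The 4 lowest were Clec4n, Wdr89, Rplp2-ps1 and Cst3, between -0.43 and -0.40. Retnlg itself had rho of 0.305 with the cell's total counts and -0.155 with its mitochondrial share. With Cxcl2, no gene of 4016 reached 0.4 in size. All these values are across cells of 1 library that share its depth and free RNA, and are descriptions.

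**Figure D4:**
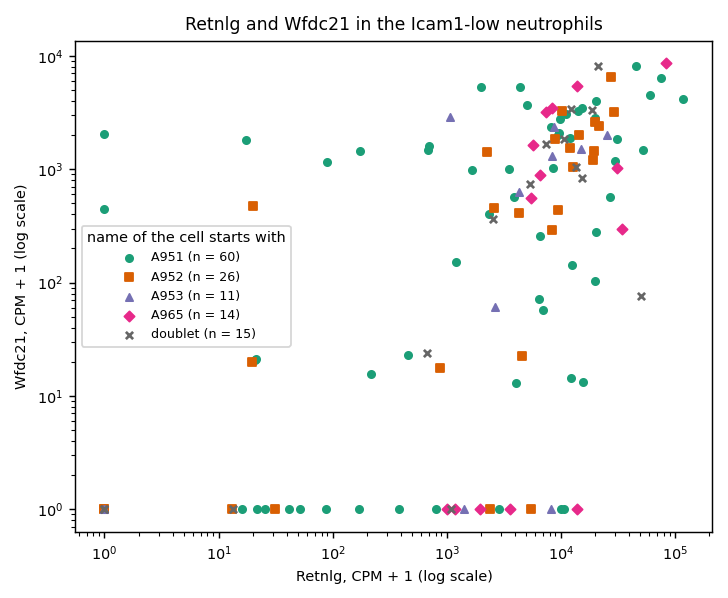
Retnlg (horizontal axis) against Wfdc21 (vertical axis) in each of the 126 Icam1-low neutrophils, both as CPM + 1 on log scales, with the marker showing the tag with which the cell's name starts. Cells with more Retnlg tend to have more Wfdc21 (rho 0.60), and cells of every tag name lie in the upper right.

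The tag with which a cell's name starts is the authors' demultiplexing call, and the labels do not say which sorted fraction a tag stands for. Of the members, 60 were named A951, 26 A952, 11 A953, 14 A965 and 15 doublet. In the hashtag library the named tag was the highest in 60 of 60 A951 members and 26 of 26 A952 members, but in 3 of 11 A953 and 2 of 14 A965 members, where its median count was 16 in A953 and 4.5 in A965 members. Retnlg summed to 14370 CPM in members named A951, 9067 in A952, 7115 in A953, 18660 in A965 and 12230 in doublet. Lcn2 summed to 1178 CPM in A951, 1037 in A952, 512 in A953, 1302 in A965 and 1495 in doublet. The contrast with Icam1-high neutrophils differed in size by tag name. Icam1-high neutrophils had 1790 CPM of Retnlg and 555 CPM of Lcn2 in A951 (16 cells). They had 4569 and 845 CPM in A952 (8 cells). Only 1 Icam1-high neutrophil was named A953 and 2 were named A965. The median mitochondrial share was 4.64% in A951, 1.20% in A952, 0.428% in A953, 0.696% in A965 and 3.07% in doublet. The cardiomyocyte marker sum was 309 CPM in A951 members, 97.3 in A952, 26.0 in A953, 23.1 in A965 and 542 in doublet, and its part in the levels by tag was not tested.

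Lymphocyte, NK cell and endothelial markers were low in the members, while cardiomyocyte, fibroblast, eosinophil and smooth muscle lists were above their level in the remaining cells. The cardiomyocyte list summed to 243 CPM in Icam1-low neutrophils, 283 CPM in Icam1-high neutrophils and 34.3 CPM in the remaining cells, and 5 members held at least 3 of its markers at 50 CPM or more. The fibroblast list summed to 301 CPM in Icam1-low neutrophils and 91.4 CPM in the remaining cells, with Gsn, an actin-severing protein gene that other cells also use, at 262 CPM in members. The list of eosinophil, basophil and mast cell markers summed to 76.1 CPM in Icam1-low neutrophils and 8.28 CPM in the remaining cells, of which Siglecf made 66.3 CPM in members. The mural and smooth muscle list summed to 32.0 CPM in Icam1-low neutrophils and 13.1 CPM in the remaining cells, and the erythroid list to 11.8 and 9.98 CPM. The platelet list summed to 165 CPM in Icam1-low neutrophils, with 1 cell at 8037.5 CPM. It stood at 35.6 CPM in Icam1-high neutrophils and 494 CPM in the remaining cells. The part of these cells or their free RNA in the levels above was not tested. The T cell list summed to 23.7 CPM with all 12 markers under 20 CPM and Cd8a at 0, the NK cell list to 4.62 CPM with Prf1 at 0, and the endothelial list to 14.0 CPM with all 11 markers under 20 CPM and Egfl7 and Cldn5 at 0. The monocyte list summed to 684 CPM in Icam1-low neutrophils and 1226 CPM in Icam1-high neutrophils, led by Nr4a1, an immediate early gene, and 12 members held at least 3 monocyte markers at 50 CPM or more. The macrophage list summed to 580 CPM in Icam1-low neutrophils and 213 CPM in Icam1-high neutrophils, led by Apoe. The macrophage list's sum per Icam1-low neutrophil had a median of 68.2 CPM, with 1 cell at 18194 CPM. The B cell list summed to 126 CPM, of which Ighm, which free RNA can carry, made 111 CPM. Ptprc, the CD45 gene, stood at 1118 CPM in Icam1-low neutrophils, 1031 CPM in Icam1-high neutrophils and 615 CPM in the remaining cells. The mCherry sequence of the reporter was found in 118 of 126 Icam1-low neutrophils, 33 of 33 Icam1-high neutrophils, 481 of 607 remaining cells and 56 of 103 B cells, so it was not particular to neutrophils. Summed, mCherry stood at 630 CPM in Icam1-low neutrophils and 870 CPM in Icam1-high neutrophils.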

How the data were processed

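Sorted cells were loaded on the BD Rhapsody platform and amplified with the TAS-Seq workflow, per the labels' protocols. The submitters' processing notes name cutadapt 4.1, STARsolo 2.7.10b, STAR, R 4.3.1 and build GRCm39, with no role or order. The transcriptome table holds estimated counts per gene and cell, as deposited by the authors, for 31192 genes and 878 cells, with no normalization; 69.8% of values above 0 are whole. The hashtag table holds whole counts per tag for 1000000 barcodes, as deposited by the authors, and all 878 cell barcodes were in it, with no repeats. Neither the labels nor the headers say if these are molecules or reads; counting intervals are too narrow if they are reads.

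Counts of a gene were summed over the cells of a group and scaled to CPM, each sum with an exact 95% interval from the Poisson distribution; shares and ratios have exact Clopper-Pearson intervals. Ratios for calls had 20 CPM added to both sides, and estimated counts were rounded for intervals. No doublet caller was run, and cells the authors named doublet stayed in. Genes named are the 20 highest and 10 lowest against the 698 cells and the 15 highest and 15 lowest against Icam1-high neutrophils, with at least 50 counts in all and 50 CPM in either group, leaving out genes of the rule and Gm or Rik models; up to 4 members a list by level; granule and maturation genes; Ptprc and mCherry; and correlates past 0.4. Cd74, H2-Aa and a few other list members were also named after their values were seen. The 30 gene lists hold 497 genes, of which 488 were in the matrix, and the 15 marker lists 153, of which 145 were. The members and lists were chosen with earlier results of these data known. B cells had Cd79a and Cd79b at 50 CPM or more, Csf3r under 20, Csf1r under 50 and Cd3e under 20 CPM. The ratio calculation was tested on simulated data. Python 3.11.15, numpy 2.4.6, pandas 2.3.3, scipy 1.17.1 and matplotlib 3.10.9 were used.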

Additional observations from a re-analysis of the deposited data

How the results depend on the processing

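No paired analysis was possible because the series holds 1 transcriptome library and 1 hashtag library, with no groups that share replicate numbers. No replicate could be left out for the same reason. The number of members was 111 without cells named doublet, 110 with a mitochondrial limit of 10%, 117 with an Icam1 limit of 100 CPM and 101 with an S100a8 and S100a9 minimum of 30000 CPM.

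Counts of called genes moved with the pseudocount, the fold and, against Icam1-high neutrophils, the count minimum. Against the 698 cells, 544 genes were higher with 20 CPM added, 1485 with 1 CPM added and 93 at 4-fold; 1283 were lower with 20 CPM added, 6303 with 1 CPM added and 251 at 4-fold. Against Icam1-high neutrophils, 411 genes were higher with 20 CPM added, 2063 with 1 CPM added, 19 at 4-fold, 172 with a minimum of 500 counts, 638 with an S100a8 and S100a9 minimum of 30000 CPM, 945 among cells named A951 and 1137 among cells named A952, A953 or A965. There, 562 genes were lower with 20 CPM added, 1384 with 1 CPM added, 29 at 4-fold and 144 with a minimum of 500 counts. The other alternatives kept these counts within 1.5 times, but not always the same genes. Of the 562 genes lower than in Icam1-high neutrophils, 299 were called again among cells named A951 (674 called). Among cells named A952, A953 or A965 it was 282 (803 called), and after thinning 332 (422 called). Of the 544 genes higher than in the 698 cells, 427 were called again among cells named A951 and 435 after thinning.

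Among log2 ratios of named and granule genes that were at least 1 in size, 6 changed sign. Changes of sign in smaller ratios were not counted. Without the leading cells, Camp was at 0.0525 and Ngp at 1.02 against the 698 cells; this alternative was chosen after the data were seen. Against Icam1-high neutrophils, Cxcl1 was at 0.60 among cells named A952, A953 or A965, Saa3 at 0.0721 with the S100a8 and S100a9 minimum of 30000 CPM, and among cells named A951 Tnfrsf13b was at 0.0366 and Usp39 at -0.85. The cause was not tested; for Camp and Ngp the alternative leaves out 2 cells at once, 1 in each group. Depth limits Camp, Elane and Mpo, whose counts in these cells are few.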
